A study of Apis mellifera with 6 samples.

Results

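The genes described here are 51 transcripts of the honey bee (Apis mellifera) midgut whose read counts were lower in bees fed tunicamycin than in bees fed the solvent. They are 51 of the 9710 genes in the deposited tables that carry a LOC number in place of a gene symbol (0.525% of them), out of 10013 genes in all. A LOC gene was taken when the mean of its 6 values was at least 100 normalized reads, its highest tunicamycin value lay below its lowest control value, and D was at most -0.75. D is log2 of the tunicamycin mean plus 1, minus log2 of the control mean plus 1. The genes were thus chosen by their normalized reads in all 6 samples, and the differences between the groups below are given as a description, without a test.

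Tunicamycin blocks the step that starts N-glycosylation, the attachment of sugar chains to asparagines of proteins that enter the endoplasmic reticulum (ER). Misfolded proteins then build up there, and the cell answers with the unfolded protein response: the ER sensor IRE1 splices the mRNA of a transcription factor that raises chaperone genes, the sensor PERK slows translation, and in flies and mammals IRE1 is also known to cut and so lower certain mRNAs at the ER membrane. The midgut epithelium of the bee secretes digestive enzymes and takes up nutrients, so much of its protein passes through the ER.

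Polyadenylated RNA of the midgut was sequenced in 6 samples. Tunicamycin samples 2, 3 and 4 came from bees fed sucrose solution with 24 µM tunicamycin and 0.5% DMSO for 24 hours, and control samples 1, 2 and 3 from bees fed the solution with 0.5% DMSO alone for the same time. The labels give neither age, colony nor cage, nor the number of bees in a sample, and tunicamycin is the whole difference they state, since every sample received DMSO.

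Depth was 22763496 to 25025084 reads in the tunicamycin samples and 23305215 to 26278751 in the controls, over the listed genes. Control 1 and tunicamycin 3 stood apart from their groups: a chi-square test of read counts gave, per degree of freedom, 137 and 125 between control 1 and the other controls, against 45 between those, and 178 and 170 between tunicamycin 3 and the other tunicamycin samples, against 102. Results are therefore also given without them. The labels were checked with Hsc70-3, which encodes BiP, the main chaperone of the ER. It had 211942, 267564 and 317129 normalized reads in tunicamycin samples 2, 3 and 4, against 68417, 35140 and 25372 in controls 1, 2 and 3. A list for ER stress and tunicamycin response, called the ER stress list below, held 6 genes: Hsc70-3, Ppib, Hsc70-5, STT3B, MsrA and Cbs. Not all of them act in the ER, and the list was chosen with earlier results of these data known. Of the 6 genes, 2 (Hsc70-3 and MsrA) passed the test over all genes, both higher. Of the alpha-glucosidases, enzymes that split sugars, 3 could be matched by symbol (Hbg2, Hbg3 and AGLU2). They summed to 701920 to 1302930 normalized reads in tunicamycin and to 1103657 to 1592447 in controls. Hbg3 was the lowest of them, with a mean of 1175, and alone had a lower tunicamycin group without overlap. D was below 0 in all 3, with a median of -0.44. Summed levels of fat body and gland, muscle, hemocyte, and enteroendocrine and neuronal markers overlapped between the groups. The 5 fat body and gland genes summed to 1268 to 1570 in tunicamycin and 1226 to 2127 in controls, the 5 muscle genes to 5852 to 7773 and 4590 to 7710, the hemocyte gene PPO was at 42.5 to 67.9 and 59.6 to 71.9, and the 3 enteroendocrine and neuronal genes summed to 709 to 1118 and 619 to 750. D was below 0 in all 5 fat body and gland genes (median -0.37), of which Hex70a had a lower tunicamycin group without overlap, in 3 of 5 muscle genes (median -0.04), in PPO (-0.20), and in 0 of the 3 enteroendocrine and neuronal genes (median 0.40). Of these 14 markers 0 passed the test in limma, edgeR or DESeq2, and 0 were at 0 in all samples. In each of these fits 2 of the 14 had an unadjusted p under 0.05, beside 1557, 1587 and 1589 of all genes in that order. D was below 0 in 51.3% of the 9132 genes outside the 51 that a reference annotation placed. The part of the alpha-glucosidases and of these markers in the lower values of the 51 genes was not tested. In a bulk sample fewer cells of a type and less RNA per cell cannot be told apart.

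The median D over the 51 genes was -0.97, with quartiles of -1.16 and -0.82. The median gene kept 50.9% of its control mean in tunicamycin. The median D over all genes was -0.01. D was at most -1 in 25 of the 51 genes, at most -1.5 in 4 and at most -2 in 1. Of the 7217 LOC genes with a mean of at least 100, 95 had a D of at most -0.75, and in 44 of these the groups overlapped. A lower tunicamycin group without overlap was found in 10.7% of all 10013 genes, and a higher one in 11.0%. The same rule turned round, for higher values in tunicamycin, was met by 246 LOC genes, or 2.53% of them.

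**Figure D1:**
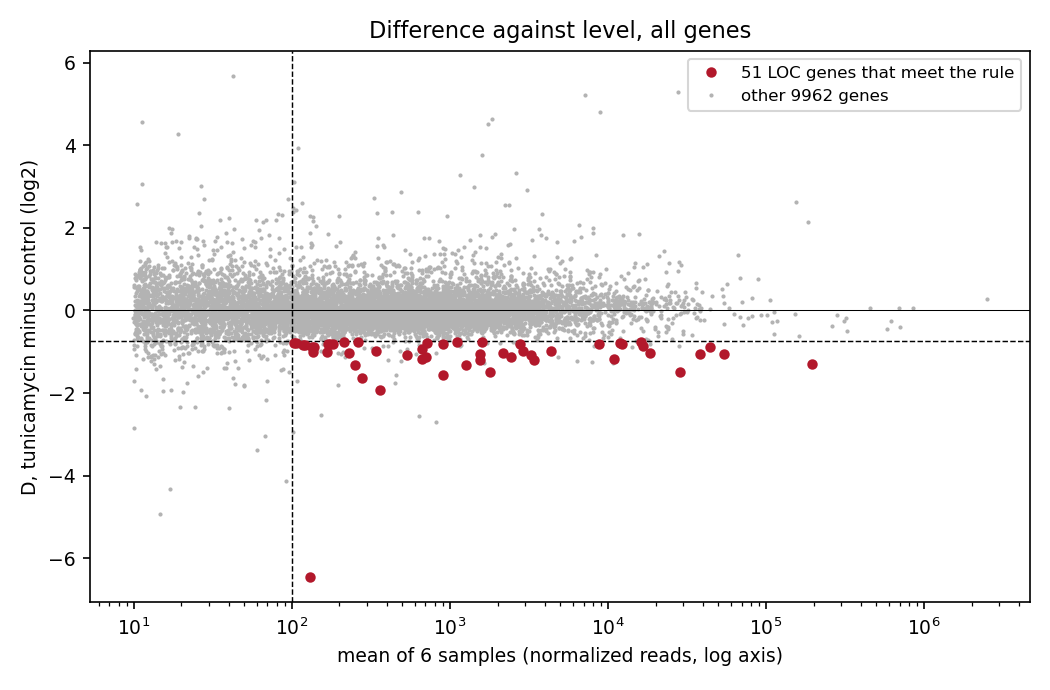
D (log2, tunicamycin minus control) against the mean of the 6 samples (normalized reads, log axis) for all genes. Red points are the 51 lowered LOC genes, grey points the other genes, and dashed lines the limits of 100 reads and -0.75; the red point below all others is LOC107965774 at -6.46.

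The fit over all genes (limma, Benjamini-Hochberg adjusted p under 0.05) called 7 of 10013 genes lower (0.0699%) and 106 higher (1.06%). Of the 51 genes, 5 were among the 7: LOC107965774, LOC410747, LOC725205, LOC409518 and LOC408452. edgeR on the recovered reads called 6 of all genes lower (0.0599%) and 88 higher (0.879%), and the same 5 of the 51. DESeq2 on the recovered reads called 117 of 9403 genes lower (1.24%) and 401 higher (4.26%), and 37 of the 51. Since the rule used the same contrast, nothing follows from this count. Without control 1, limma called 9 of the 51 lower, beside 22 of all 10013 genes. The counts were 8 beside 15 without tunicamycin 3, 4 beside 5 without tunicamycin 2 and 2 beside 5 without tunicamycin 4. They were 2 beside 2 without control 3 and 1 beside 1 without control 2. LOC107965774 was called in each of the 6 fits that left a sample out, and LOC409518 in all of them but the fit without control 2.

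No gene of the 51 carries a symbol or a synonym in the sources used here, so no role is given for them. A reference annotation (Amel_HAv3.1) listed 47 of the 51: 45 were protein-coding genes and 2, LOC100578019 and LOC726292, were long non-coding RNAs. Among all genes of the tables, 84.0% were listed as protein-coding and 7.4% as long non-coding, against 88.2% and 3.9% of the 51.

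LOC107965774 stood apart from the other 50. It was counted with 0, 1 and 5 reads in tunicamycin samples 2, 3 and 4, against 243, 280 and 275 reads in controls 1, 2 and 3. The controls lay within a factor of 1.099 of each other, and the tunicamycin samples were all near 0. Its mean was 1.92 ± 2.47 normalized reads in tunicamycin and 256.9 ± 12.5 in controls (mean ± SD, n = 3 each), a D of -6.46. With so few reads this value depends on single libraries and on the pseudocount: D was -7.40 without tunicamycin 4 and -6.99 with a pseudocount of 0.1. It was also the gene with the widest gap, with a lowest control 51.5 times its highest tunicamycin value. The next widest gap among the 51 was that of LOC409518.

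LOC409518 had 483, 491 and 395 normalized reads in tunicamycin samples 2, 3 and 4, against 1128, 1360 and 1542 in controls 1, 2 and 3. Every tunicamycin sample was below every control by a factor of at least 2.30. Its means were 456.1 ± 53.0 and 1343.3 ± 207.7 (SD, n = 3 each; D -1.56), so that about 34% of the control mean was left. LOC410747 had 196, 135 and 120 in tunicamycin, against 443, 736 and 535 in controls, and means of 150.4 ± 40.4 and 571.4 ± 149.9 (D -1.92). It had the lowest D after LOC107965774, with 26.3% left. LOC408452 had 15596, 18017 and 11231 in tunicamycin, against 51103, 38636 and 36719 in controls (D -1.496). In these 3 genes and LOC107965774, 4 of the 51, the lowest control was at least 2 times the highest tunicamycin value. A factor of at least 1.5 was found in 3 more, LOC725205 (1.87), LOC725774 (1.62) and LOC100578019 (1.56).

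LOC725205 had 160, 123 and 121 normalized reads in tunicamycin samples 2, 3 and 4, against 300, 456 and 506 in controls (D -1.64). Control 1 was the lowest control, and the tunicamycin samples were close to each other. LOC725774, a low gene, had 105, 86.7 and 98.1 in tunicamycin, against 182, 185 and 170 in controls, and means of 96.5 ± 9.09 and 179.1 ± 8.02 (D -0.89). Both of its groups were tight. The long non-coding RNA LOC100578019 had 1004, 2629 and 2512 in tunicamycin, against 5305, 4755 and 4090 in controls (D -1.20). Tunicamycin 2 was its lowest sample by far.

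**Figure D2:**
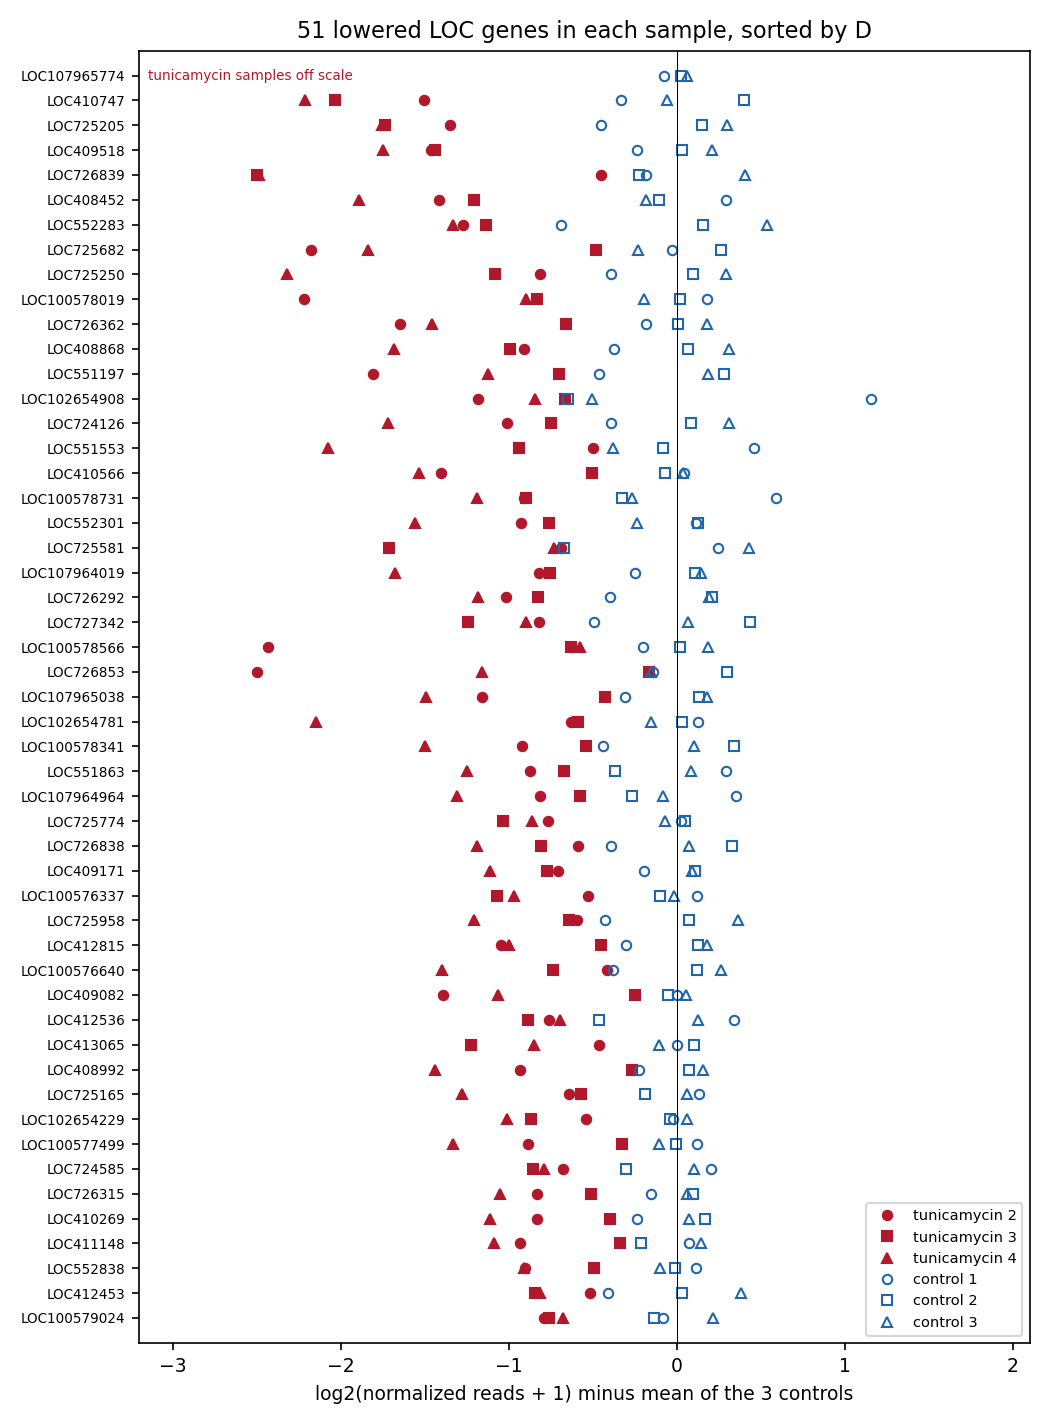
The 51 lowered LOC genes by sample, from the lowest D at the top to the highest at the bottom, as log2(normalized reads + 1) minus the mean of the 3 controls. Filled red symbols are tunicamycin samples 2, 3 and 4, open blue symbols controls 1, 2 and 3; the tunicamycin values of LOC107965774 are off the scale to the left, and filled triangles (tunicamycin 4) are often the leftmost.

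The 51 genes spanned a wide range of read counts. Their control means ran from 130.3 to 279078 normalized reads with a median of 1343.3, against a median of 646 over the LOC genes with a mean of at least 100. Read counts depend on transcript length, which was not used here. Of the 279 LOC genes with a mean of 10000 or more over the 6 samples, 11 met the rule (3.94%). The share was 0.607% of 2305 LOC genes between 1000 and 10000, and 0.561% of 4633 between 100 and 1000. The 2 conditions behind it did not follow level alike. A D of at most -0.75 was met by 5.02% of the LOC genes at 10000 or more, against 1.17% in each of the lower classes, while lower tunicamycin values without overlap were found in 10.04%, 11.9% and 13.2% from the highest class to the lowest. For the rule turned round the shares were 7.17%, 4.51% and 2.63%.

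LOC725250 held the most reads of the 51. It had 155655, 129259 and 54654 normalized reads in tunicamycin samples 2, 3 and 4, against 208847, 292829 and 335559 in controls 1, 2 and 3. Tunicamycin 4 was well under the other 2 tunicamycin samples, and control 1 was the lowest control. Its means were 113189 ± 52383 and 279078 ± 64465 (SD, n = 3 each; D -1.30), and it took 0.627%, 0.489% and 0.240% of the reads in tunicamycin, against 0.896%, 1.197% and 1.393% in controls. The other 50 genes together took 0.822%, 0.883% and 0.684% of the reads in tunicamycin and 1.834%, 1.6% and 1.589% in controls.

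Another 11 genes had control means of at least 10000. LOC552301 had 38453, 43091 and 24847 in tunicamycin, against 79124, 79863 and 62087 in controls (D -1.06). LOC107964964 had 32171, 37859 and 22766 in tunicamycin, against 72018, 46965 and 53358 in controls (D -0.89). In both, tunicamycin 4 was the lowest sample and the controls spread by less than the distance between the group means.

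LOC100578731 had 26108, 26259 and 21501 in tunicamycin, against 73842, 39130 and 40796 in controls (D -1.06). Control 1 was far above the other controls there, and without it D was -0.70 and the gene no longer met the rule. LOC726292, the other long non-coding RNA, had 12085, 13809 and 10752 in tunicamycin, against 18566, 28248 and 27948 in controls (D -1.03). Here control 1 was the lowest control. LOC409171 (D -0.86), LOC410269 (D -0.76), LOC725165 (D -0.80) and LOC726315 (D -0.79) had tunicamycin means between 8690 and 11930 and control means between 14991 and 21346.

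LOC551197 had 4232, 9141 and 6823 in tunicamycin, against 10767, 18048 and 16891 in controls (D -1.18). The spread within its tunicamycin group was 2.16-fold. LOC100576640 had 8232, 6595 and 4168 in tunicamycin, against 8421, 11933 and 13172 in controls (D -0.82). Its groups parted by a factor of 1.02 only, between tunicamycin 2 and control 1.

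**Figure D3:**
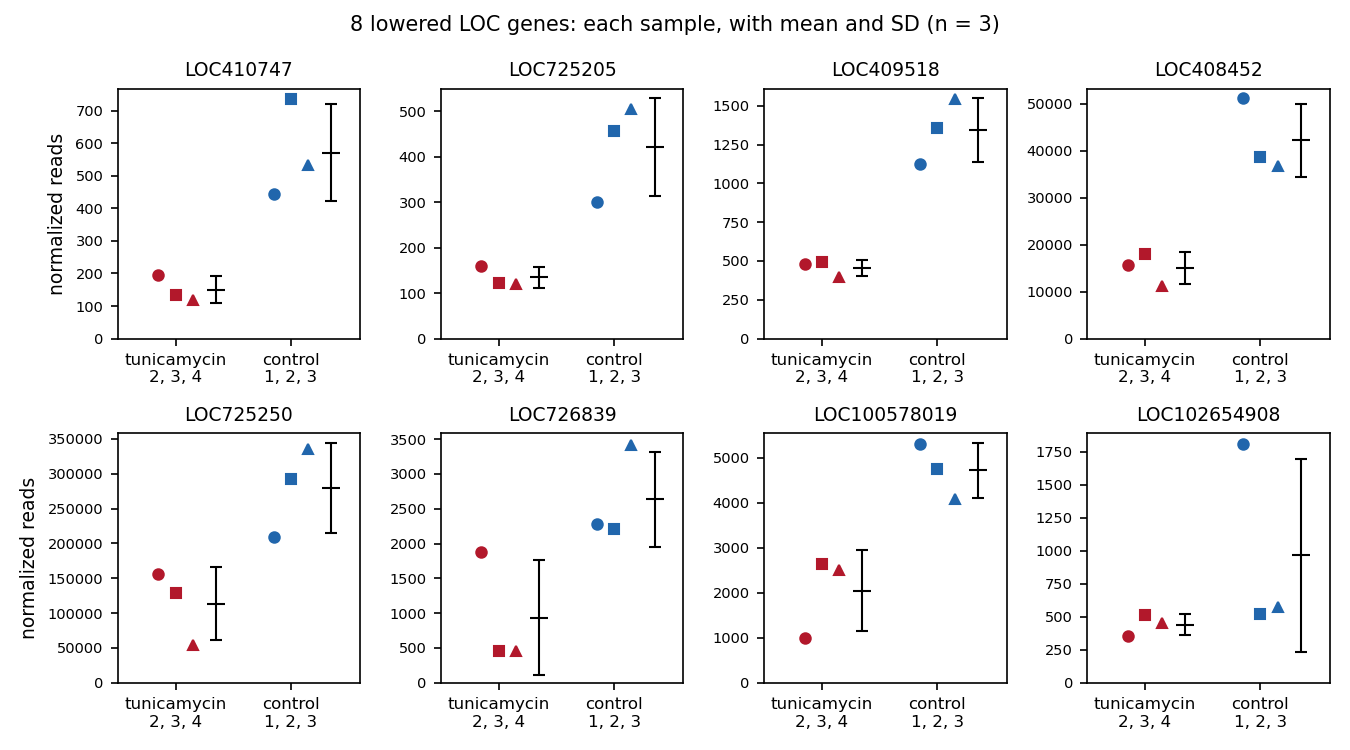
Normalized reads of 8 lowered LOC genes in each sample (left, red: tunicamycin 2, 3 and 4 as circle, square and triangle; right, blue: controls 1, 2 and 3 likewise), with mean and SD beside each group (n = 3). LOC409518 and LOC408452 show well-separated groups, while tunicamycin 2 of LOC726839 at 1884 and controls 2 and 3 of LOC102654908 at 517 and 571 lie close to the other group.

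In several genes 1 library lay far from the rest of its group. LOC102654908 had 356, 511 and 452 normalized reads in tunicamycin samples 2, 3 and 4, against 1812, 517 and 571 in controls 1, 2 and 3. Controls 2 and 3 were just above the highest tunicamycin sample, and without control 1 its D was -0.31, against -1.14 with it. LOC726839 had 1884, 456 and 459 in tunicamycin, against 2276, 2211 and 3418 in controls (D -1.497). Tunicamycin 2 was near the controls, and without it D was -2.52.

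LOC725682 had 77.4, 252.6 and 98.1 in tunicamycin, against 346, 423 and 301 in controls (D -1.32, and -2.01 without tunicamycin 3). LOC726362 had 681, 1356 and 779 in tunicamycin, against 1883, 2151 and 2429 in controls (D -1.20, and -1.56 without tunicamycin 3). In both, tunicamycin 3 was the highest of its group. LOC726853 had 38.2, 196.6 and 98.1 in tunicamycin, against 200, 272 and 198 in controls (D -1.003), a 5.15-fold spread within the tunicamycin group and a gap of 1.01 between the groups. Its D was -1.70 without tunicamycin 3 and -0.60 without tunicamycin 2, where it no longer met the rule. In 10 of the 51 genes the lowest control was less than 1.1 times the highest tunicamycin value.

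LOC552283 and LOC408868 complete the 12 genes with the lowest D. LOC552283 had 705, 774 and 677 in tunicamycin, against 1057, 1894 and 2473 in controls (D -1.33), with tight tunicamycin samples and a 2.34-fold spread among controls. LOC408868 had 482, 455 and 281 in tunicamycin, against 698, 948 and 1124 in controls (D -1.18). LOC724126 had 1627, 1946 and 994 in tunicamycin, against 2498, 3470 and 4062 in controls (D -1.13). In each of these 3 control 1 was the lowest control and tunicamycin 4 the lowest tunicamycin sample.

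Tunicamycin samples varied more among themselves in the 51 genes than controls did. The median coefficient of variation was 26.4% in tunicamycin and 17.6% in controls, against 11.9% and 12.9% over the 7435 genes with a mean of at least 100. The rule used the same values and favours genes with a very low tunicamycin sample or a very high control, so nothing follows from this spread. Tunicamycin 4 was the lowest of its group in 31 of the 51 genes (60.8%), tunicamycin 2 in 11 and tunicamycin 3 in 9. Over the 7435 genes these shares were 30.5%, 35.3% and 34.3%. Among controls, control 1 was the lowest in 25 of the 51 genes (49.0%), control 2 in 15 and control 3 in 11, against 38%, 32.4% and 29.6% over the 7435 genes. In 18 genes both tunicamycin 4 and control 1 were the lowest of their groups.

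The rule does not fix the order within a group. A D threshold favours genes in which some tunicamycin sample is very low or some control very high. With 3 samples a group there is no test of the order. Some other measured values move with it. Hsc70-3 was highest in tunicamycin 4 among the tunicamycin samples and in control 1 among the controls, at the values given above, although tunicamycin 3, not tunicamycin 2 with the least Hsc70-3, was the highest tunicamycin sample in 29 of the 51 genes. The ER stress list was divided. Ppib and Hsc70-5 were also highest in tunicamycin 4, and Cbs was level in tunicamycin 3 and 4 (785 and 786). MsrA and STT3B were highest in tunicamycin 3, at 7483 against 4565 in tunicamycin 4 and at 3317 against 2840. Among the controls, each gene of the list was highest in control 1. The alpha-glucosidase Hbg2 was lowest in tunicamycin 4 and control 1, at 323009 in tunicamycin 4 against 667338 and 694939 in tunicamycin 2 and 3, and at 513091 in control 1 against 608892 and 885501 in controls 2 and 3. The part of these genes in the order was not tested.

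**Figure D4:**
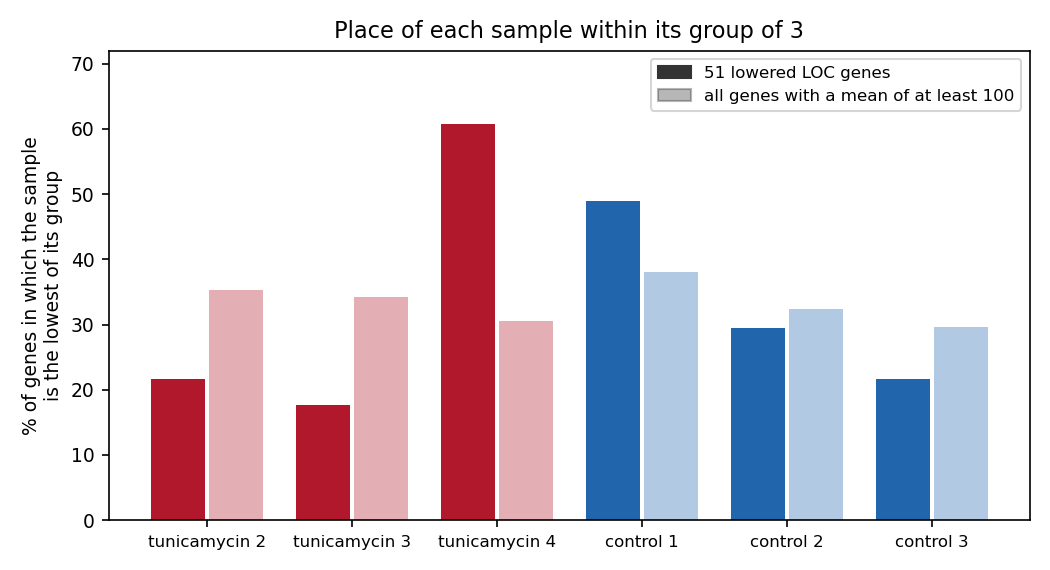
Share of genes (percent) in which each sample is the lowest of its own group of 3, for the 51 lowered LOC genes (dark bars) and for all genes with a mean of at least 100 (pale bars); tunicamycin samples in red on the left, controls in blue on the right. Tunicamycin 4 is lowest in 60.8% of the 51 genes, against 30.5% of all genes.

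The tables were deposited as pairs of a tunicamycin and a control sample, and the differences were not equal across these pairs. The median log2 difference over the 51 genes was -0.85 for tunicamycin 2 minus control 1, -0.83 for tunicamycin 3 minus control 2 and -1.31 for tunicamycin 4 minus control 3, while the medians over all genes were within 0.01 of 0. A difference of at most -0.75 was found in 29, 27 and 48 of the 51 genes in these pairs, and in all 3 pairs in 10. The pair of tunicamycin 4 and control 3 held the largest difference in 34 genes. The low-level genes LOC100578566, at 32.7, 116.3 and 120.7 in tunicamycin against 157, 183 and 206 in controls, and LOC409082, at 81.8, 181.8 and 102.8 against 216, 209 and 224, were among the 12 with the largest difference in the pair of tunicamycin 2 and control 1.

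Near the limits of the rule values ran on without a break. Just inside the D limit were LOC100579024 (-0.752), LOC412453 (-0.754), LOC552838 (-0.759) and LOC411148 (-0.759). Just outside it were LOC726682 (-0.743), LOC102654056 (-0.736), LOC102654884 (-0.736) and LOC726695 (-0.731), which met the other conditions. The lowest means inside the limit were those of LOC100577499 (102.5), LOC102654229 (105.4), LOC725958 (117.9) and LOC100576337 (120.5). Under it, 52 further LOC genes met the other conditions, the nearest being LOC107965883 at 96.3 with 65.4, 52.9 and 31.1 in tunicamycin against 105, 185 and 138 in controls. Left out by their symbols were 4 genes that met every other condition.

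Those 4 named genes were Jhe, CYP6AQ1, Hbg3 and Hex70a. Jhe, juvenile hormone esterase, which breaks down juvenile hormone, had 1270, 2116 and 948 normalized reads in tunicamycin samples 2, 3 and 4, against 2571, 3719 and 3009 in controls 1, 2 and 3 (D -1.10). CYP6AQ1, a cytochrome P450 of a family known in insects for oxidizing plant compounds and pesticides, had 27646, 20738 and 12101 in tunicamycin, against 33343, 45310 and 30893 in controls (D -0.86). Hbg3, an alpha-glucosidase, had 951, 989 and 599 in tunicamycin, against 1168, 1609 and 1736 in controls (D -0.83). In these 3 genes tunicamycin 4 was again the lowest tunicamycin sample. Hex70a, a hexamerin storage protein of the fat body, had 107, 147 and 126 in tunicamycin, against 297, 194 and 184 in controls (D -0.82).

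Neighbours in the genome were looked at because nearby genes can share reads or regulation. In the order of genes of the reference annotation, 46 of the 51 could be placed, and a single pair of them, LOC725165 and LOC725205, were neighbours; their annotated spans overlap, and without the strand of the counting their reads may not be told apart. Their differences were unequal, with D at -0.80 for LOC725165 and -1.64 for LOC725205. The 73 measured genes next to a member of the 51 had a median D of -0.06, against -0.01 over all 9132 placed genes outside the 51, the 73 included. A lower tunicamycin group without overlap was found in 9 of the 73 (12.3%), against 10.7%, and a higher one in 11 (15.1%), against 11.2%. Among the 16 whose annotated spans overlap that of a member, the median D was -0.21. D was below 0 in 10 of the 16 (62.5%), against 51.3% of the 9132. The tunicamycin group was lower without overlap in 3 (18.8%) and higher in 2 (12.5%), against 10.7% and 11.2%. One of the 16 went far the other way: LOC100578939, which overlaps LOC410269, had 1997, 1002 and 1785 in tunicamycin, against 448, 236 and 297 in controls (D 2.28).

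How far the choice of the 51 genes rests on single libraries was read by applying the rule to 5 samples at a time. It was then met by 139 LOC genes without tunicamycin 3, 116 without control 1, 83 without tunicamycin 2, 69 without control 2, 59 without control 3 and 44 without tunicamycin 4. Of the 51 genes, 46, 42, 41, 47, 40 and 33 were among them in that order, and 24 met the rule in all 6 sets. A condition of no overlap is easier to meet with fewer samples, so the counts above 51 do not by themselves show a larger difference. The median D of the 51 genes themselves was -0.80 without tunicamycin 4, and between -0.94 and -1.13 when another sample was left out.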

How the data were processed

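Per the labels, poly(A)-selected RNA of the bee midgut was sequenced. The authors deposited a normalized signal in 3 tables of 2 samples each. The values show it to be read counts over a size factor: 100% of each column came out as whole reads, within a tolerance of 0.001 of a read. Trimmomatic 0.36, STAR, Subread and DESeq2 are the tools named in the submitters' processing notes. Genome build, strand and settings of the counting were not given in the sources used here. The members and lists were chosen with earlier results of these data known. D and all counts were computed from the deposited signal with Python. The design named limma-trend for normalized values: limma 3.58.1 on log2(value + 1), 6 samples, group as sole term, Benjamini-Hochberg adjustment over 10013 genes, checked on simulated data. edgeR 4.0.16 and DESeq2 1.42.0 on the recovered reads were alternatives; edgeR called 94 genes. Fold changes on this scale understate low genes. Nothing in the labels says whether replicates were separate cages or colonies, and the p-values then cover the spread between the 6 samples, which may be technical; replicates differed by more than counting noise (chi-square per degree of freedom 45 to 178). Named genes were the members that limma called, the 12 lowest D, the 12 highest control means, those at the limits, neighbours, and context genes by symbol; further members are named as examples picked after their values were seen. The reference table (Amel_HAv3.1) gave names, biotypes and gene order for 9205 of 10013 identifiers, and no coordinates are printed. Protein and promoter sequences were not used here. Groups came from the sample titles.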

Additional observations from a re-analysis of the deposited data

How the results depend on the processing

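The count of 51 genes stayed within 1.5 times with a pseudocount of 0.1 (51), TMM scaling (51), a difference of mean log2 values (51) and a mean of at least 300 (34), and with a replicate block by deposited table, read as a lower value in each pair (73). It was 102 with a mean of at least 10 and 25 with D at most -1; with 1 sample left out it ranged from 44 to 139. No median D moved by more than the spread between pairs. limma called 106 genes higher and 7 lower, 5 of them among the 51. DESeq2 called 401 higher and 117 lower, 37 among the 51, and 5 genes of the ER stress list against 2; the cause was not tested. Samples with the same number did not deviate together (correlation -0.169 and -0.0812), and those of the same table did so in 1 of 3 pairs (0.0854, 0.201 and 0.0222), so no pairing was taken. The replicate block by deposited table gave 41 higher and 3 lower, and 1 of the ER stress list. The 3 were among the 51: LOC107965774, LOC409518 and LOC725581, and not LOC410747, LOC725205 or LOC408452. A replicate block on the shared number (4 samples) gave 4 higher and 0 lower, 0 among the 51 and 0 of the list. In that limma fit 40 of the 51 had an unadjusted p under 0.05, beside 1046 of all genes. Since the rule used the same contrast, nothing follows from the 40. A replicate block with crossed numbers, added after seeing the data, gave 84 higher and 13 lower, 4 among the 51. With 1 sample left out limma called 18 to 180 genes higher, 1 to 22 lower and 1 to 9 of the 51, and 1 to 3 genes of the list (3 in the fit without control 1). Neighbouring pairs among the lowered genes, 1 in the report, were 2 with a mean of at least 10 and 0 with D at most -1, both added after seeing the data; the places of tunicamycin 4 and control 1 moved by less than 1.5 times. Of 663 values of D for single genes under alternatives, 8 moved by more than the spread between replicates and 0 changed sign. The rule puts every tunicamycin value below every control, so a change of sign could hardly occur and nothing follows from the 0. Another limit of the mean or of D, and the block by deposited table, leave the D of a gene as it was. Their values are among the 663. Protein features and promoter motifs were planned and not run. With 3 samples a group, and low genes such as LOC100577499 near 100 reads, small differences were not detectable.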

Other observations

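Among genes next to the lowered ones, LOC412591, whose annotated span overlaps that of LOC409171, had 88.3 normalized reads in tunicamycin 2 against 833 and 766 in tunicamycin 3 and 4, while the controls held 742, 910 and 868. Its D of -0.58 rests on that library. LOC413637, which overlaps LOC413065, was higher in every tunicamycin sample, at 269, 277 and 321 against 157, 146 and 131 in controls (D 0.99), while LOC413065 itself had 160, 94.1 and 123 in tunicamycin and 222, 238 and 206 in controls. Under the limit of 100 reads, LOC100577039 had 4.36, 8.46 and 14.1 in tunicamycin samples 2, 3 and 4, against 351, 98.6 and 71.9 in controls 1, 2 and 3, with control 1 far above the others.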
